A study of Homo sapiens with 14 samples.

Results

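The microRNA gene windows are 1910 of the 28159 windows of 1000 bp in which reads were counted, or 6.78%. They are the windows whose gene symbol begins with MIR and a digit, or with MIRLET7, without those of microRNA host genes (symbols ending in HG) and without MIR3189. The study pulled down RNA polymerase II that carries phosphate on Ser5 of the C-terminal domain (antibody 3E8) from wild-type HCT116 cells, a human colorectal carcinoma line, and sequenced the bound DNA (ChIP-seq). There were 6 ChIP libraries: Nutlin3a with peptide (1), DMSO with peptide (1), Nutlin3a without peptide (2) and DMSO without peptide (2). Nutlin3a, which activates p53, was given at 10 µM and DMSO at 0.1%, both for 3 h, after an electroporation that every group went through. The bivalent peptide was electroporated at 10 µM and followed by 200 nM in the medium, and the groups without it had water in its place. Another 8 libraries, 2 for each combination, were inputs, sheared chromatin sequenced without immunoprecipitation. Both peptide ChIP libraries carry replicate number 2. The labels do not say whether replicates came from separate cultures, and the spread behind the p-values may thus be only technical.

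Of the 1910 windows, 193 overlapped the window of a gene that is not a microRNA by at least 1 bp, 356 overlapped only windows of other microRNAs, and 1361 overlapped none. Reads in an overlap count for every gene that shares it, and no strand is given, so a microRNA and the gene it overlaps cannot be told apart there. In addition 83 microRNA genes shared 31 identical windows, so the 1910 genes stand on 1858 distinct windows. A hairpin from RefSeq could be placed inside 1502 of the windows, and the windows kept the same direction along the genome for both strands. The rest need not miss their hairpin, since miR-93-5p lies inside the MIR93 window, where no hairpin was placed. Of 790 windows with a hairpin on the plus strand, 786 began 300 bp upstream of it, and of 712 on the minus strand, 711 reached 700 bp upstream. A window of this kind is placed by the hairpin, at a fixed offset, and not by the start site from which the primary transcript is made.

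Most human microRNAs are cut from long polymerase II transcripts. The Microprocessor (DROSHA with DGCR8) frees the hairpin in the nucleus, exportin 5 carries it out, Dicer trims it to a duplex, and an Argonaute protein keeps 1 strand, which recognises messenger RNAs mainly through its seed, bases 2 to 8. Many hairpins lie in introns of a host gene, and their transcription starts at the promoter of that host, which can be far away. A few, such as miR-320a and miR-484, are made without Microprocessor from a short capped transcript whose start is the 5′ end of the hairpin. Ser5 phosphorylation is placed on the polymerase soon after it starts and is strongest near promoters.

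The sequences below are the mature microRNAs on which the results by family rest, shown so that the members with 1 seed can be seen together. They come from RefSeq on GRCh38.p14 and are written 5′ to 3′, with the seed (bases 2 to 8) in capitals. Of the 1502 genes with a hairpin placed in the window, 1466 had mature sequences, with 1728 distinct seeds among 2183 sequences. The first group is the let-7 family, whose members share 1 seed.
let-7a-5p: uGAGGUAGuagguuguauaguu
let-7b-5p: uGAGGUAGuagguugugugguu
let-7i-5p: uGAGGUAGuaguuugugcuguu
The next are members of the miR-17-92 cluster and of its paralog in MCM7. The first of each pair below comes from the MCM7 cluster and its partner from the miR-17-92 cluster, and the pairs differ from each other in seed.
miR-106b-5p: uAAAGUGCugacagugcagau
miR-17-5p: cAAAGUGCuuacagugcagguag
miR-25-3p: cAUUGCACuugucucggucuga
miR-92a-3p: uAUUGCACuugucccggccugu
The epithelial miR-200 family has 2 seeds, that of miR-141 differing from that of miR-200c and miR-429.
miR-200c-3p: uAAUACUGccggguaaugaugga
miR-429: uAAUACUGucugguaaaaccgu
miR-141-3p: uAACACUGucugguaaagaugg
The p53 target miR-34a, the abundant miR-21 and miR-31, and the 3 microRNAs without overlap that had the smallest p over input complete the set.
miR-34a-5p: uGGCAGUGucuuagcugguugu
miR-21-5p: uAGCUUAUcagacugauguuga
miR-31-5p: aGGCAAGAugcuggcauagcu
miR-3918: aCAGGGCCgcagauggagacu
miR-4647: gAAGAUGGugcugugcugaggaa
miR-3187-3p: uUGGCCAUggggcugcgcgg

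Depth at these windows was low. ChIP libraries held 1290223 to 2240951 counts and inputs 161719 to 359276, and the microRNA windows took 3.44% to 4.25% of the ChIP counts and 6.04% to 6.84% of the input counts. The median microRNA window had 9 to 13 counts in a ChIP library, against 22 to 35 over all windows, and 2 to 5 counts in an input, against 4 to 10. A median window in Nutlin3a replicate 1 stood at 11.4 CPM (counts relative to the TMM-scaled total of the library), and the remaining 5 ChIP medians were 5.76 to 6.86 CPM, although that library had the fewest counts. Markers of colon epithelium were above input at 4 of 9 windows (EPCAM, KRT8, KRT18 and KRT19), against 25.1% of all windows tested. Of the markers of blood, mesenchyme, neuron, muscle and liver that could be tested, 0 of 3, 0 of 4, 0 of 3, 0 of 3 and 0 of 1 were above input, and CD3E, COL1A1 and TWIST1 were below it.

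The replicate 1 ChIP libraries stood apart at a small set of windows that includes the best known oncogenic microRNAs. Both of them were at least 4 times as high (TMM-scaled CPM, with a prior count of 2) as each of the 4 replicate 2 ChIP libraries at 49 of 28159 windows (0.174%). Of these 49, 18 were snoRNA windows (36.7%) and 9 were microRNA windows (18.4%), and no window was 4 times as high in the opposite direction. The threshold was chosen after the values were seen. MIR21, which lies in VMP1 (window chr17:59840966-59841965), had 276 counts in Nutlin3a replicate 1 and 207 in DMSO replicate 1. The replicate 2 libraries had 19 counts with Nutlin3a and peptide, 21 with DMSO and peptide, 16 with Nutlin3a and 8 with DMSO, and the 8 inputs had 2 counts in all. MIR21 thus split by replicate number under both treatments, but this is the rule by which these windows were picked. Both peptide libraries carry number 2, so the peptide is not balanced against the replicate number.

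The same split was found along the miR-17-92 cluster on chromosome 13 and at a let-7 gene. MIR17 (chr13:91350305-91351304) had 42 counts in Nutlin3a replicate 1 and 35 in DMSO replicate 1, against 4, 1, 2 and 0 in the replicate 2 libraries with Nutlin3a and peptide, DMSO and peptide, Nutlin3a and DMSO. MIR18A had 48 and 38 against 4, 1, 1 and 0 in the same order, and MIR19A 40 and 32 against 4, 0, 1 and 0. These 3 windows overlap, so they repeat largely the same reads. MIRLET7F1 had 16 and 19 counts in replicate 1 and 0 to 2 in replicate 2, and MIR221 had 36 and 18, against 0 to 2. The others were MIR1248, which overlaps 4 snoRNA windows, MIR421 and MIR548U. At 2 times instead of 4 there were 591 windows (2.1%), 80 of them microRNA windows, against 49 windows in the opposite direction, and MIR31 and MIR222 joined the set. Results that rest on these windows are therefore given by library.

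**Figure D1:**
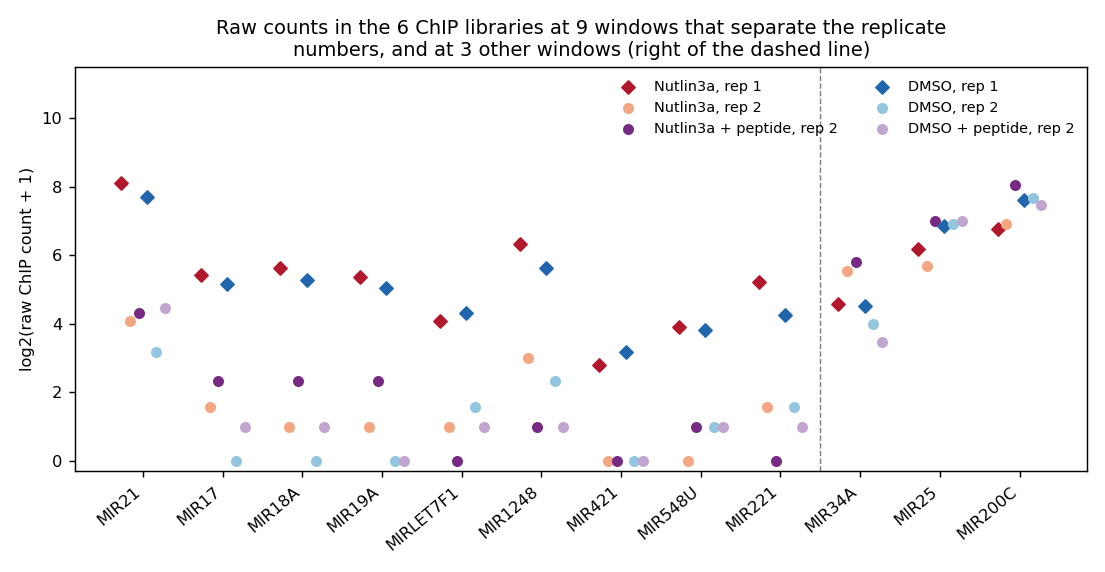
Raw counts, as log2(count + 1), in each of the 6 ChIP libraries (diamonds, replicate 1; circles, replicate 2) at the 9 microRNA windows where both replicate 1 libraries were at least 4 times every replicate 2 library, and at MIR34A, MIR25 and MIR200C, right of the dashed line, where the replicate numbers were not separated. At MIR21 the replicate 1 libraries had 276 and 207 counts and no replicate 2 library more than 21.

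ChIP was set against input to ask which microRNA windows had more Ser5-phosphorylated polymerase signal than input, relative to the other windows. At an adjusted p under 0.05 (edgeR, quasi-likelihood; Benjamini-Hochberg over 21504 windows), 151 of the 1086 microRNA windows that passed the count filter were higher in ChIP (13.9%) and 223 were lower (20.5%). Over all windows tested the shares were 25.1% higher and 15.5% lower. Among windows that passed the filter, those of microRNAs were thus called higher less often and lower more often than the whole table. The median log2 ratio of ChIP over input was −0.64 over the microRNA windows tested and −0.04 over all windows. This gap was smaller with no filter, at −0.20 and 0.01, and absent among windows with a mean of at least 50 counts, at 0.04 and 0.00. That mean was taken over the 14 libraries, and the ChIP libraries are much deeper. It therefore keeps windows that are high in ChIP, and the missing gap is partly built in. The main filter leans the other way. It asks for a minimum level in only 1 library, and a few counts reach that level in a shallow input. A low window could thus pass through an input where it was high, such as MIR129-1, with 3.59 to 8.79 CPM in ChIP and 0 to 58.8 CPM in input. The lower calls and the gap in the main fit are therefore partly built in too. Because scaling used the window counts of each library itself, the ratio orders windows relative to each other and gives no absolute enrichment. With total counts as the scaling the medians moved to −0.93 and −0.33, and 106 microRNA windows were higher and 350 lower, or 23.2% of calls higher against 40.4% with TMM. With DESeq2's size factors 29.2% of calls were higher (125 and 303). Over all windows 16.7% were higher and 25.3% lower with total counts, and 19.6% and 21.3% with DESeq2's size factors.

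Windows that overlapped another gene's window differed from those that did not, in level and in the ratio over input. In the 6 ChIP libraries the median overlapping window had 44.5 ± 1.81 CPM and the median window with no overlap 6.39 ± 2.04 CPM (SD over libraries, n = 6), with ranges of 42.1 to 46.6 and 5.12 to 10.5 that do not meet. In the inputs the medians were 33.5 ± 2.88 and 9.15 ± 2.46 CPM (n = 8). The overlapping median was thus 7.35 ± 1.5 times the other in ChIP and 3.85 ± 0.847 times in input, and the lowest ChIP value, 4.42, came from Nutlin3a replicate 1. Windows of all other genes lay between, at 20.2 ± 0.80 CPM in ChIP and 26.2 ± 2.32 CPM in input. The windows that overlapped only other microRNAs, at 7.20 ± 2.58 CPM in ChIP and 11.9 ± 1.56 in input, were close to those with no overlap. Part of the difference was already present in the inputs, where no polymerase was selected.

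**Figure D2:**
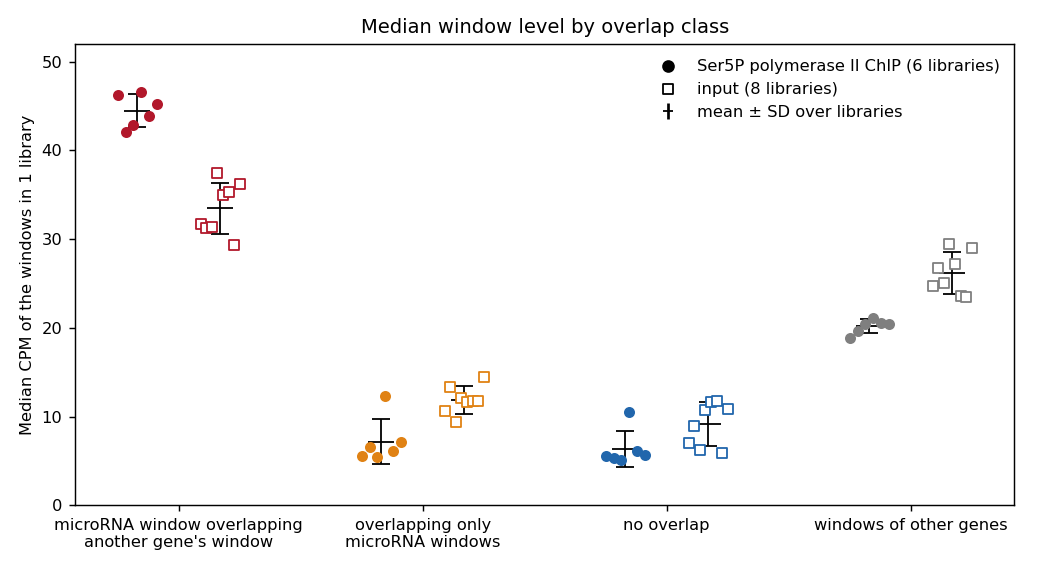
Median CPM of the windows of each class in each library (filled circles, 6 ChIP libraries; open squares, 8 inputs; bars, mean ± SD over libraries). The ChIP medians lie between 42.1 and 46.6 CPM for microRNA windows that overlap another gene's window and between 5.12 and 10.5 CPM for those with no overlap, and only the first class has its ChIP points above its input points.

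The ratio over input separated the classes in the same way. Of 171 overlapping windows tested, 66 were higher in ChIP (38.6%) and 23 lower, with a median log2 ratio of 0.40. Of 709 windows with no overlap, 61 were higher (8.6%) and 153 lower, with a median of −0.76, and of 206 that overlapped only microRNA windows, 24 were higher (11.7%) and 47 lower, with a median of −0.72. The difference between the overlapping and no-overlap medians was 1.16, and 0.57 when a microRNA window also counted as a partner. The windows of the 172 overlapped genes themselves were higher at 71 of 158 tested (44.9%), with a median of 0.56. Counting windows that share at least 500 bp gave 52 of 116 higher (44.8%) and a median of 0.66, and those that share less gave 14 of 55 (25.5%) and a median of 0.00. By strand of the hairpin, 28 of 76 overlapping plus strand windows and 17 of 58 minus strand ones were higher, against 24 of 293 and 26 of 285 with no overlap. These are counts and medians of windows and were not tested, since windows are not replicates. The filter passed 171 of 193 overlapping windows but 709 of 1361 with no overlap, and low windows could pass through an input where they were high.

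Beyond the overlap itself, the median ratio of the windows tested was similar from 1000 to 10000 bp from the nearest window of another gene and lower farther out. It was −0.37 with the centres 1000 to 2000 bp apart, −0.36 at 2000 to 5000 bp, −0.35 at 5000 to 10000 bp, −0.69 at 10000 to 20000 bp, −0.90 at 20000 to 50000 bp and −1.15 beyond 50000 bp. In the last bin 2 of 191 windows were higher in ChIP (1.05%) and 52 lower. The filter passed these 191 of the 561 windows of that bin, against 70 of 94 at 1000 to 2000 bp. Low windows could pass through an input where they were high, so the lower medians farther out may be partly built in. Over all windows of the bin, tested or not, 0.357% were called higher in the last bin and 7.45% at 1000 to 2000 bp. Windows with no overlap inside a protein-coding gene were also grouped by that host. Where the host lay on the same strand and its own window was called higher, 27 of 131 microRNA windows were higher and the median was 0.12. Where the host was not called, 5 of 144 were higher with a median of −0.81, and where it was called lower, 0 of 23 with a median of −1.13. On the strand opposite to a host called higher, 1 of 18 was higher with a median of −0.37. Hairpins in no RefSeq gene had 5 of 79 higher and a median of −1.24. Host call and distance were not separated from each other, and their parts were not tested.

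**Figure D3:**
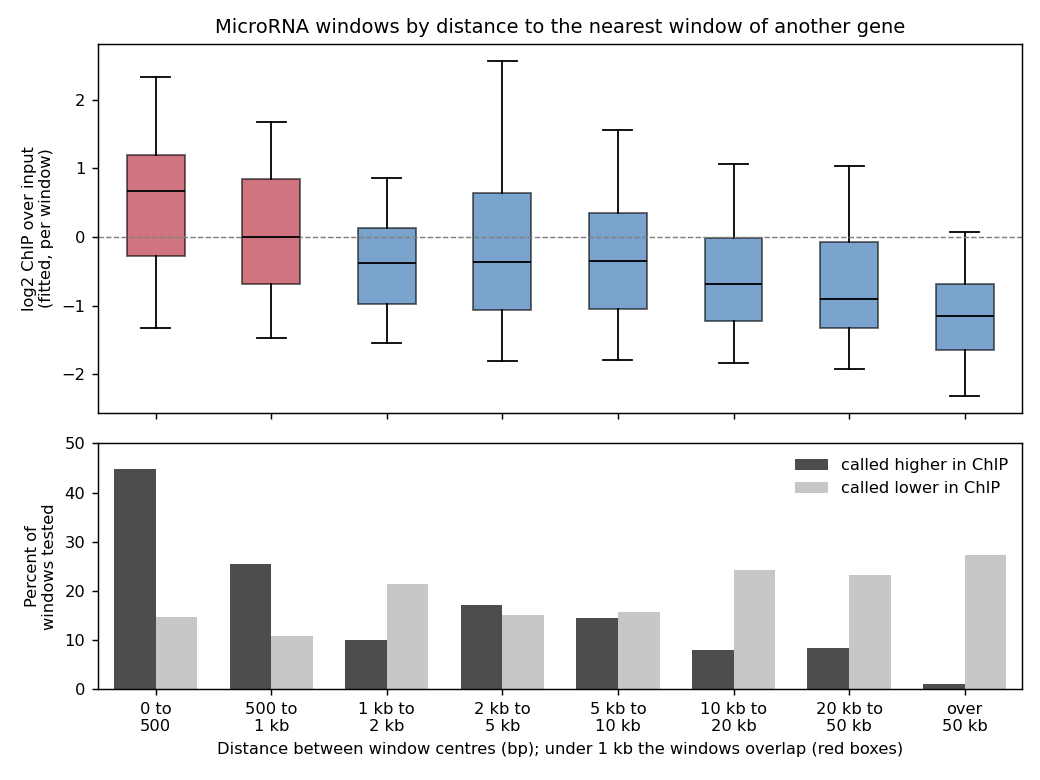
Fitted log2 ratio of ChIP over input per microRNA window (above; boxes, quartiles with the median; whiskers, 5th to 95th percentile) and percent of tested windows called higher or lower (below), by distance between the window's centre and that of the nearest window of a gene that is not a microRNA. Red boxes are overlapping windows. The medians run from 0.66 in the nearest bin to −1.15 in the farthest, and the share called higher from 44.8% to 1.05%. The filter passed 116 of 131 windows in the nearest bin and 191 of 561 in the farthest.

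Of the 10 windows with an overlap that were higher in ChIP with the smallest p, 9 overlapped the window of a gene that is not a microRNA. MIR636 (chr17:76736249-76737248) shares 984 bp with the window of MFSD11 and also overlaps that of SRSF2, a splicing factor. It had 321, 481 and 527 CPM in ChIP (lowest, median and highest of 6), against 28.2, 63.1 and 94.2 CPM in input (of 8), with a log2 ratio of 2.95 ± 0.22 (SE; adjusted p = 2.32e-11). MFSD11, which has mostly the same reads, stood at 2.98 ± 0.22. MIR1539 (chr18:49487073-49488072), in the unit of C18orf32 and RPL17, was at 2.73 ± 0.23, with 230 to 264 CPM in ChIP against 18.8 to 71.5 in input. MIR6850 overlaps RPL8 (2.29 ± 0.23), MIR1292 lies in NOP56, a core protein of box C/D snoRNPs (2.37 ± 0.23), and MIR4449 in DANCR, a noncoding snoRNA host (2.33 ± 0.21). In each of these 5 the ChIP and input values did not overlap.

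Also among the 10 were MIR378D2 at PDP1 (2.88 ± 0.26, 197 bp shared), MIR3178 at CEMP1 (2.04 ± 0.24), MIRLET7I at LINC01465 (2.62 ± 0.30) and MIR1244-3. The last overlaps only the windows of its 3 copies, which are identical to its own, so its identity is uncertain. It lies on chromosome 2, 4789 bp from the window of PTMA, the gene of prothymosin alpha, and stood at 2.57 ± 0.23. The microRNAs known to start at a capped 5′ end were chosen after their values were seen. MIR320A, upstream of POLR3D, a subunit of polymerase III, had 210 to 270 CPM in ChIP against 31.7 to 94.1 CPM in input, a log2 ratio of 1.89 ± 0.23 (adjusted p = 1.34e-07). MIR484, between NDE1 and MARF1, had 44.5 to 77.3 CPM against 7.04 to 50.2 CPM, at 1.28 ± 0.31 (adjusted p = 0.00151). They share 905 bp (MIR320A) and 912 bp (MIR484) with a neighbouring gene's window, so their own start site cannot be told apart from it. MIR484 was not called with only the DMSO libraries without peptide (1.89, adjusted p = 0.0918).

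Among windows with no overlap, the smallest p were those of MIR3918, MIR4647 and MIR3187. MIR3918 (chr6:158764454-158765453), in SYTL3, had 292, 331 and 461 CPM in ChIP, against 3.52, 57.8 and 86.9 CPM in input (lowest, median and highest), a log2 ratio of 2.79 ± 0.24 (adjusted p = 4e-10), although the nearest window of another gene lay 53225 bp away. MIR4647 (chr6:44253986-44254985), in SLC35B2, which transports the sulfate donor PAPS into the Golgi, had 150, 211 and 273 CPM against 4.47, 29.7 and 41.2 CPM, at 3.06 ± 0.27. The start window of SLC35B2 was lower than its microRNA window in the ratio, at 1.20 ± 0.24.

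MIR3187 (chr19:813284-814283) had the highest ratio of these 10, at 3.94 ± 0.36 (adjusted p = 7.95e-10), with 85.2, 157 and 194 CPM in ChIP against 0, 14.9 and 32.2 CPM in input. It lies within PLPPR3, whose own start window, 8369 bp away, held 7.03 to 14.4 CPM in ChIP and 0 to 35.2 CPM in input. The fitted log2 ratio of that start window was 0.00, without an SE, as the SE derived from the test is unstable near 0. The position of the start window puts PLPPR3 on the strand opposite to the hairpin. The MIR3187 window thus carried signal that the annotated start of the gene around it, on the other strand, did not. MIR9898, in the simple-epithelial keratin gene KRT8, was at 2.05 ± 0.26, with its host at 2.53 ± 0.26. MIR4321, downstream of the start of AMH, was at 2.39 ± 0.30 and AMH at 2.23 ± 0.28, their windows lying 1316 bp apart. MIR6727 in INTS11, the nuclease of the Integrator complex, was at 2.08 ± 0.30, MIR4749 in PTOV1 at 2.02 ± 0.30, MIR4530 near ZFP36 at 2.37 ± 0.26 and MIR6848 near DGAT1 at 1.88 ± 0.28. ChIP and input values overlapped only at MIR4749 among these 10, where ChIP ran from 54.2 to 104 CPM and input from 7.78 to 63.4. MIR5087 (2.46 ± 0.31) had 443 and 609 counts in the Nutlin3a and DMSO replicate 1 libraries and 194 to 294 in the replicate 2 libraries. With only the DMSO libraries without peptide, MIR5087 (2.40, adjusted p = 0.051) and MIR4749 (1.23, adjusted p = 0.102) were not called.

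**Figure D4:**
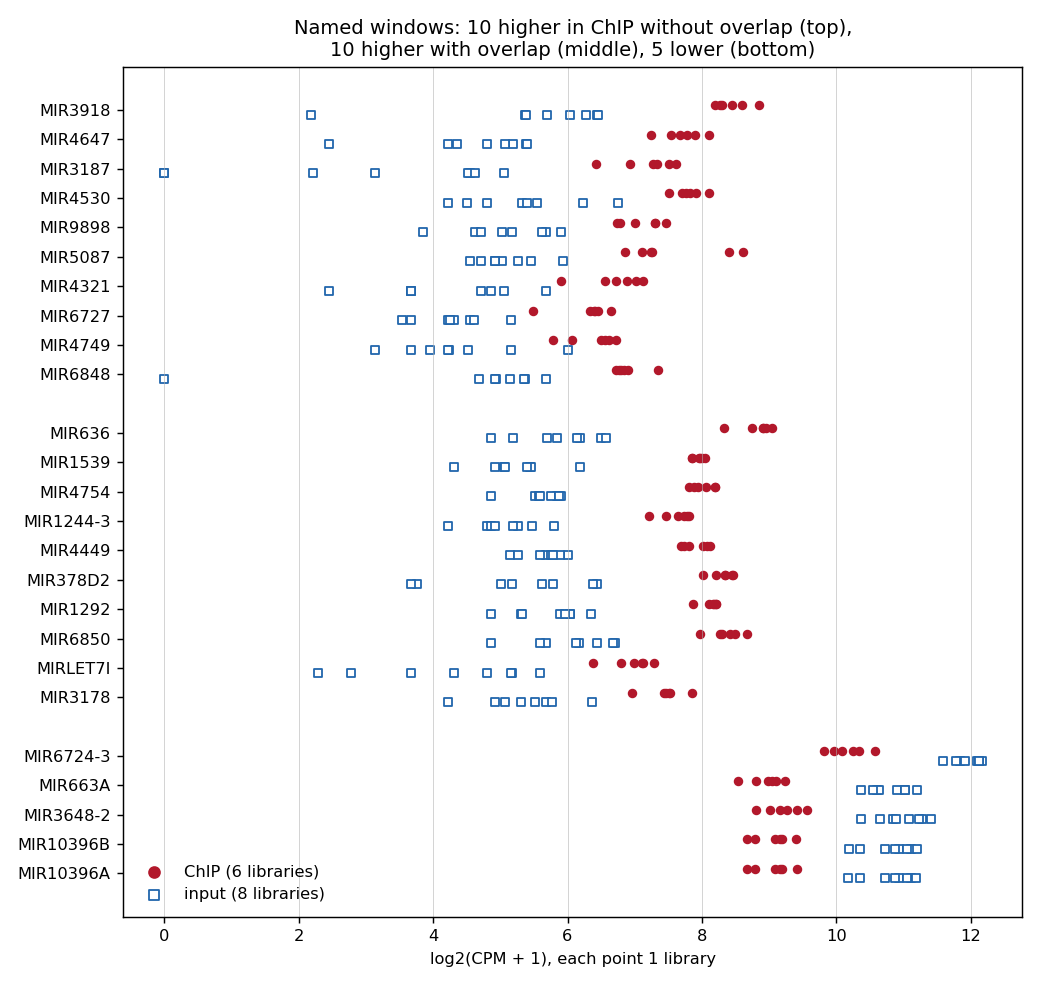
Level of each named window, as log2(CPM + 1), in the 6 ChIP libraries (red circles) and the 8 inputs (open blue squares), for the 10 windows without overlap and the 10 with overlap that were higher in ChIP with the smallest p, and the 5 that were lower. ChIP lies above input in every library at 19 of the upper 20 windows, MIR4749 being the exception, and below it at the 5 lower ones.

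The 5 windows lower in ChIP with the smallest p were MIR6724, MIR663A, MIR3648, MIR10396B and MIR10396A, the last pair 3101 and 3102 bp from the window of RNA45SN1, a ribosomal RNA gene. Ribosomal DNA is repeated, so these windows are uncertain. MIR6724-3 and its 3 copies share 1 window on an unplaced scaffold, with 902 to 1520 CPM in ChIP against 3070 to 4580 CPM in input (log2 ratio −1.79 ± 0.17, adjusted p = 3.36e-09). MIR663A stood at −1.91 ± 0.20, MIR3648-2, which shares its window with MIR3648-1, at −1.84 ± 0.20, MIR10396B at −1.83 ± 0.20 and MIR10396A at −1.82 ± 0.21. ChIP lay below input in all libraries at these 5. MIR12136, on the mitochondrial genome, had 38.6 to 468 CPM in ChIP against 289 to 5400 CPM in input, ranges that overlap, with a log2 ratio of −3.59 ± 0.49.

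By family, the MCM7 cluster and the let-7 genes on chromosomes 12 and 22 were above input. Counts by family stand beside 13.9% higher and 20.5% lower among microRNA windows tested, and 25.1% and 15.5% among all windows. MIR106B, MIR93 and MIR25 lie in 1 intron cluster of MCM7, a replication helicase subunit, and their overlapping windows (chr7:100093344-100094774 in all) had log2 ratios of 1.85 ± 0.41, 1.56 ± 0.37 and 1.38 ± 0.31 (adjusted p = 0.000802, 0.00159 and 0.000963). MIR25 had 35.0 to 80.6 CPM in ChIP and 3.52 to 48.2 in input. With only the DMSO libraries without peptide, MIR106B, MIR93 and MIR25 were at 3.09, 2.61 and 2.46. They were not called there (adjusted p = 0.0571, 0.0724 and 0.051), and 8.55% of all windows were called higher. Of the 15 windows of the miR-17-92 cluster and its paralogs, 6 could be tested and those 3 were higher, with 0 lower. The miR-17-92 hairpins themselves, of which miR-17, miR-20a and miR-92a share a seed with the MCM7 cluster, had 0 to 7 counts in every replicate 2 library and 16 to 48 in replicate 1, and 0 in all inputs. Their host start window, MIR17HG, 2785 bp from MIR17, was at 2.22 ± 0.24, with 140 to 200 CPM in the 6 ChIP libraries. The third copy of the cluster, on the X chromosome (MIR106A to MIR363), had at most 9 counts in a library.

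Of the 12 let-7 windows 4 could be tested and 3 were higher, MIRLET7I (above), MIRLET7B (1.44 ± 0.30, adjusted p = 0.000404) and MIRLET7A3 (1.03 ± 0.30, adjusted p = 0.00738). MIRLET7B and MIRLET7A3 are neighbours on chromosome 22, and MIRLET7A3 had 47.4 to 65.2 CPM in ChIP against 3.89 to 47.1 in input. Its mature product is identical in sequence to those of MIRLET7A1 and MIRLET7A2, which had 0 to 11 and 1 to 29 counts in the ChIP libraries. Most window counts in each ChIP library thus lay at 1 of the 3 genes, and so did those of the 8 inputs, with 67 counts at MIRLET7A3, 0 at MIRLET7A1 and 7 at MIRLET7A2. With only the DMSO libraries without peptide, neither MIRLET7A3 (0.88, adjusted p = 0.208) nor MIRLET7B (0.53, adjusted p = 0.5) was called. MIRLET7B was also not called when a mean of 50 counts was required (0.49, adjusted p = 0.288). MIRLET7A3 was not called with the first Nutlin3a input left out (0.74, adjusted p = 0.0648).

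Of the 5 windows of the miR-200 family, which keeps cells epithelial by repressing ZEB1 and ZEB2, 3 were above input. MIR200C (chr12:6963399-6964398) had 81.7, 110 and 137 CPM in ChIP and 19.4, 35.1 and 58.8 CPM in input, with a log2 ratio of 1.56 ± 0.25 (adjusted p = 1.27e-05), and MIR141 beside it was at 1.43 ± 0.27. Both overlap the start window of their host MIR200CHG (1.73 ± 0.23). When a mean of 50 counts was required, neither MIR200C (0.62, adjusted p = 0.0672) nor MIR141 (0.49, adjusted p = 0.211) was called. Neither was called with only the DMSO libraries without peptide (1.37 and 1.44, adjusted p = 0.0554 and 0.0568). MIR429, at the second locus on chromosome 1, was at 1.40 ± 0.46 (adjusted p = 0.0169), a call that ended without ChIP DMSO replicate 2 (0.0591), ChIP Nutlin3a replicate 2 (0.0828), input Nutlin3a replicate 1 (0.0696) or input Nutlin3a with peptide replicate 2 (0.0625), with total counts (0.0566) and with DESeq2 (0.069). Its neighbours MIR200A (0.88 ± 0.46) and MIR200B (−0.28 ± 0.39) were not called. Of 17 tested windows of the colon and epithelial list 4 were higher, these 3 and MIR21, and 1 was lower, MIR375 (−0.97 ± 0.32, adjusted p = 0.0183), a microRNA of pancreatic islets and secretory epithelium. This stands beside 25.1% higher among all windows tested and 13.9% among microRNA windows, so the list did not exceed the whole table. MIR375 was not called with only the DMSO libraries without peptide (−1.37, adjusted p = 0.139). MIR21 (adjusted p = 0.00141) had most of its ChIP counts in replicate 1, and the 4 replicate 2 ChIP libraries held 8 to 21 counts against 2 in the 8 inputs together. Its call was lost with limma-voom (adjusted p = 0.0699). MIR31 was not called (0.92 ± 0.77, adjusted p = 0.33), with 90 counts in Nutlin3a replicate 1 and 130 in DMSO replicate 1 against 4 to 31 in replicate 2, while the start window of its host MIR31HG was at 2.73 ± 0.23.

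Of 11 tested windows on the list of p53-linked microRNAs, MIR200C and MIR23A (1.41 ± 0.28) were higher and MIR143 lower (−2.07 ± 0.43). When a mean of 50 counts was required, MIR23A was not called (0.47, adjusted p = 0.257). With only the DMSO libraries without peptide, MIR23A (1.13, adjusted p = 0.122) and MIR143 (−2.65, adjusted p = 0.0526) were not called. Beside the lists in this paragraph, 25.1% of all windows tested were higher and 15.5% lower, and 13.9% and 20.5% of microRNA windows. MIR34A was at −0.15 ± 0.47, with 6.40 to 31.6 CPM in ChIP and 0 to 31.3 in input. Of 18 tested windows of microRNAs of muscle, neuron, blood, mesenchyme, liver and pancreas, 1 was higher and 4 lower. The higher one was MIR150, known from lymphocytes, with 98.4 to 140 CPM in ChIP against 0 to 58.1 CPM in input (1.75 ± 0.26, adjusted p = 5.85e-06), 3150 bp from the window of SNORD35B. The muscle microRNAs MIR1-1, MIR133A2 and MIR208A had ChIP medians of 11.4, 7.11 and 6.70 CPM and input medians of 12.7, 16.0 and 16.8. In the imprinted cluster on chromosome 14, 0 of 31 tested windows were higher and 10 lower (median −1.23), and in the primate cluster on chromosome 19, 0 of 12 and 3 (median −1.40). The median ChIP level was 7.45 CPM over the 46 windows of the first cluster and 4.42 CPM over the 46 of the second. Windows this low could pass the filter through a high input, so these lower calls and medians are partly built in. The same limit applies to the 4 lower windows of the tissue lists, among them MIR143, with 5.12 to 16.5 CPM in ChIP and 12.6 to 74.0 CPM in input. Genes of the processing machinery, which are not microRNAs, were higher at 8 of 13 windows: DGCR8, XPO5, RAN, DICER1, TARBP2, PRKRA, AGO3 and TNRC6A.

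Nutlin3a was set against DMSO without peptide to ask which microRNA windows gained or lost polymerase once p53 was activated. Over 25901 windows edgeR called 2 higher (0.00772%) and 0 lower (0%), and 0 of the 1581 microRNA windows tested in either direction. The smallest adjusted p of a microRNA window was 0.982. MIR3189, left out of the set, was 1 of the 2 windows called. At an unadjusted p under 0.05, 28 microRNA windows were higher and 16 lower, against 330 (1.27%) and 271 (1.05%) of all windows. DESeq2 and limma-voom called 0 microRNA windows each. Leaving out 1 library gave calls. Without DMSO replicate 1, 9 microRNA windows were higher, among 88 of all windows (0.349%), and without Nutlin3a replicate 2, 3 were higher, among 37 (0.144%). Without Nutlin3a replicate 1, 1 was lower, among 15 (0.0634%). Of the 9, 7 were windows at least 2 times as high in both replicate 1 libraries, and the single lower one was MIR21.

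MIR34A, a direct target of p53 that represses cell cycle genes, was among the 5 with the smallest p in the upward direction. Its window (chr1:9151478-9152477) had 23 and 46 counts with Nutlin3a, against 22 and 15 with DMSO, and 55 counts with Nutlin3a and peptide against 10 with DMSO and peptide. Relative to depth, Nutlin3a was above DMSO in both replicates and with peptide, by log2 ratios of 0.67, 1.70 and 1.94. The fit gave 1.30 ± 0.45 (95% interval 0.35 to 2.25, unadjusted p = 0.0104, adjusted p = 0.982). The start window of its host, MIR34AHG, was at 0.99 ± 0.26 (adjusted p = 0.982). MIR34B and MIR34C, p53 targets on chromosome 11, had 2 and 15 and 6 and 8 counts with Nutlin3a, against 10 and 14 and 7 and 2 with DMSO.

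MIR3191 lies in BBC3, which encodes the p53-induced death factor PUMA, 4180 bp from the start window of that gene. It had 133 and 167 counts with Nutlin3a, against 120 and 138 with DMSO, and 236 against 97 with peptide, for a log2 fold change of 0.65 ± 0.22 (unadjusted p = 0.00884). MIR3190, which overlaps it and was chosen after its values were seen, was at 0.60 ± 0.22, and the start window of BBC3 at 1.56 ± 0.26 (adjusted p = 0.0986). At all 3 windows Nutlin3a was higher without reaching the threshold. MIR4669, in RXRA, which encodes a retinoid receptor, had 49 and 88 counts against 28 and 62, at 1.00 ± 0.36, and its window shares 884 bp with that of RXRA. MIR4477A had 55 and 29 counts against 16 and 13, and 27 against 23 with peptide. It was called with the replicate number as a block (adjusted p = 0.00163) and without Nutlin3a replicate 2 (0.0214). MIR378G had 29 and 8 counts against 2 and 3, and 2 against 5 with peptide, where the direction was the opposite.

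The 5 smallest p in the downward direction belonged to microRNAs without overlap, each inside a protein-coding gene. MIR4746 lies in CHAF1A, a subunit of the chromatin assembly factor, and had 59 and 58 counts with Nutlin3a, against 134 and 140 with DMSO (−0.78 ± 0.24, unadjusted p = 0.00526). MIR4747 lies in UHRF1, which keeps DNA methylation at replication, and had 16 and 18 counts against 54 and 54 (−1.23 ± 0.39). MIR1914, in UCKL1, a uridine-cytidine kinase homolog, had 103 and 99 against 245 and 190 (−0.65 ± 0.23). MIR4749 in PTOV1 had 75 and 79 against 187 and 164 (−0.74 ± 0.22), and MIR3187 had 97 and 177 against 288 and 306 (−0.71 ± 0.24). All 5 were lower with Nutlin3a in both replicates, and none passed the threshold (adjusted p = 0.982 for each). With peptide their log2 ratios were smaller in size, at −0.19, −0.47, −0.28, 0.04 and −0.35 in the order named. The start windows of the surrounding genes CHAF1A, UHRF1, UCKL1, PTOV1 and PLPPR3 were at −0.30 ± 0.27, −0.45 ± 0.24, −0.19 ± 0.25, −0.37 ± 0.22 and 0.19 ± 0.57, none of them called. PLPPR3 lies on the strand opposite to MIR3187.

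**Figure D5:**
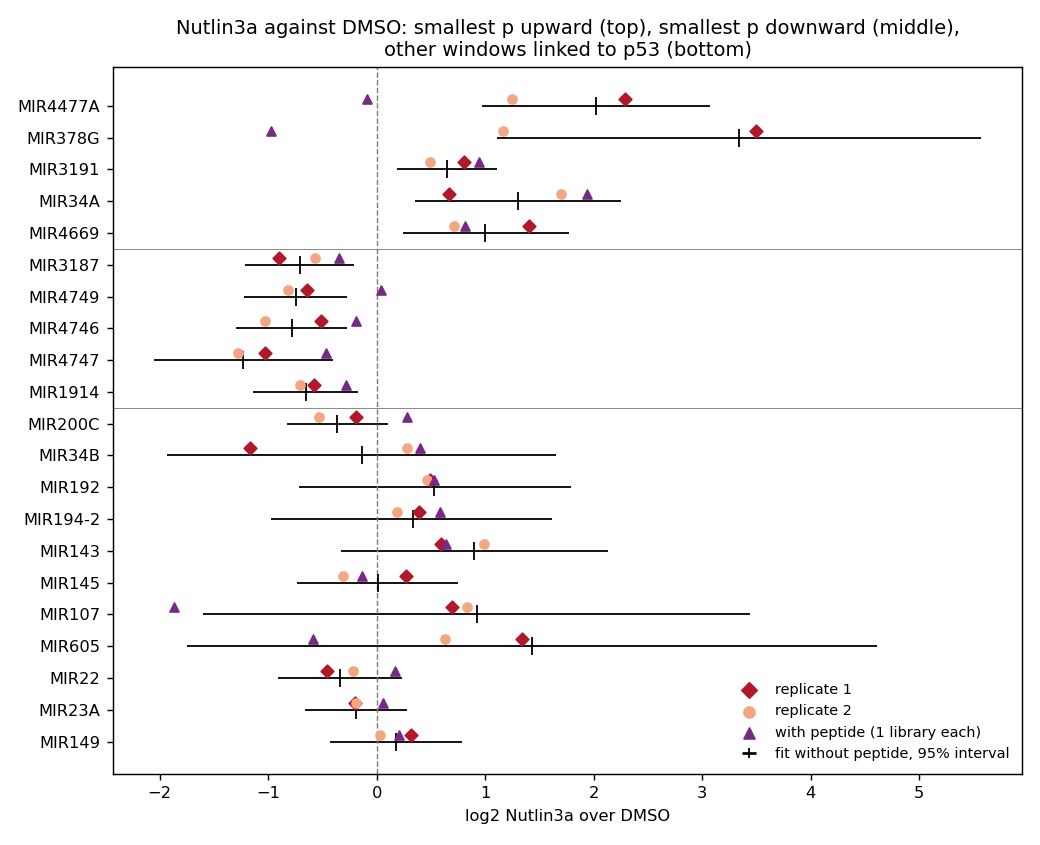
Log2 ratio of Nutlin3a over DMSO at the 5 microRNA windows with the smallest p in each direction and at 11 other windows on the list of p53-linked microRNAs, in replicate 1 (diamonds), in replicate 2 (circles) and with peptide (triangles, 1 library against 1), with the fitted value without peptide and its 95% interval (black). MIR34A, MIR3191 and MIR4669 have all 3 points above 0, while MIR4477A and MIR378G have the point with peptide below 0.

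Over the microRNA windows tested the median log2 change with Nutlin3a was 0.34, against 0.04 over all windows, and this came from replicate 1. There the median was 0.53, with 1182 of 1581 windows above 0, while it was 0.02 in replicate 2 (806 of 1581) and 0.01 with peptide (801 of 1581). Windows with no overlap had 0.59 in replicate 1 and 0.05 in replicate 2, and overlapping ones −0.03 and −0.01. Among the 289 microRNA windows with a mean ChIP count of at least 50 the median was −0.11, close to the −0.14 of all such windows. Nutlin3a replicate 1 is also the library in which the median window with no overlap was highest, at 10.5 CPM, with 5.12 to 6.18 CPM in the remaining ones. Without it the median change over microRNA windows was 0.01, while leaving out each of the other libraries without peptide gave 0.26 to 0.52. The authors' scaling moved the medians to 0.88 for microRNA windows and 0.53 for all. Of the tested p53-linked windows 8 of 12 were positive, with a median of 0.25, beside 1103 of all 1581 microRNA windows tested, with a median of 0.34.

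Whether the peptide altered the response to Nutlin3a was read from the difference between the response with and without it. In that comparison and in peptide against none under each treatment, edgeR called 0 windows (0%) in each direction among all 25901 and so 0 microRNA windows, with adjusted p = 1 throughout. Each peptide group is 1 library, so its spread was taken from the pairs without peptide. For the difference, 4 microRNA windows were higher and 22 lower at an unadjusted p under 0.05, against 107 (0.413%) and 166 (0.641%) of all windows. For peptide against none with DMSO there were 9 and 13, against 178 (0.687%) and 215 (0.83%). With Nutlin3a there were 9 and 71, against 146 (0.564%) and 486 (1.88%). DESeq2 and limma-voom called 0 in each.

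In the difference, MIR4658 in TRAPPC14 had the smallest p upward. It had 79 counts with Nutlin3a and peptide against 32 with DMSO and peptide, and without peptide 23 and 34 with Nutlin3a against 57 and 67 with DMSO (1.67 ± 0.59, unadjusted p = 0.0114). MIR632, which overlaps the zinc finger gene ZNF207, had 207 against 100 with peptide and 116 and 95 against 204 and 166 without (1.07 ± 0.42). At both, Nutlin3a was higher than DMSO with peptide and lower without it. MIR3619 (119 against 66 with peptide, 60 and 52 against 105 and 112 without) had the same order. MIR4749 had 181 against 140 with peptide, a log2 ratio of 0.04, and 75 and 79 against 187 and 164 without. MIR4421 rested on a count of 0 with DMSO and peptide, against 6 and 8 with DMSO.

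Downward, in order of p, MIR151A had 1 count with Nutlin3a and peptide against 9 with DMSO and peptide, and 33 and 10 with Nutlin3a against 13 and 1 with DMSO without it. MIR539 had 8 against 19 with peptide and 17 and 14 against 6 and 7 without (−3.25 ± 1.20). MIR12136 had 96 against 184 with peptide and 533 and 73 against 221 and 65 without (−2.93), its highest count being that of Nutlin3a replicate 1. It was called with the replicate number as a block (−2.63, adjusted p = 1.72e-08), without DMSO replicate 1 (−4.01) and without Nutlin3a replicate 2 (−3.81). MIR3158-2 had 15 against 28 with peptide and 31 and 21 against 20 and 14 without (−2.30 ± 0.89). MIR1258, which overlaps ZNF385B, had 34 against 54 with peptide and 32 and 48 against 36 and 35 without (−1.58 ± 0.62). At all 5 Nutlin3a was lower than DMSO with peptide and, relative to depth, higher without it in both replicates.

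With DMSO, the peptide library and the libraries without it differed most at low counts. Upward, MIR6843 had 38 counts with peptide against 11 and 17 without, MIR5701-1 had 30 against 16 and 10, MIR12122 had 16 against 3 and 5, MIR631 had 64 against 29 and 40, and MIR6769A had 50 against 17 and 34. Downward, MIR3193, near ID1, had 110 against 214 and 200 (−0.74 ± 0.30), MIR6864 had 23 against 57 and 60 (−1.18 ± 0.45), MIR181D had 2 against 14 and 17, MIR30E had 0 against 25 and 6, and MIR4421 had 0 against 6 and 8. MIR3193 and MIR6864 are the 2 of these 5 whose counts are above 20 in each library.

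With Nutlin3a, the 5 upward windows had high counts and small changes. MIRLET7I was at 0.68 ± 0.27, with 302 counts with peptide against 94 and 160 without. MIR200C was at 0.63 ± 0.26 (266 against 108 and 119), MIR4746 at 0.70 ± 0.29 (145 against 59 and 58), MIR4749 at 0.63 ± 0.26 (181 against 75 and 79) and MIR1234 at 0.86 ± 0.36 (151 against 37 and 75). The peptide library was the deeper one, and the fitted values take this into account. The 5 downward windows were those in which replicate 1 had the most counts: MIR29A had 11 with peptide against 79 and 39 in replicates 1 and 2, MIR3064 had 1 against 71 and 9, MIR1248 had 1 against 80 and 7, MIR151A had 1 against 33 and 10, and MIR4485 had 4 against 52 and 9. The median change over microRNA windows was −0.26, and −0.03 between the replicate 2 libraries alone. Without DMSO replicate 1, DMSO replicate 2 or Nutlin3a replicate 2 there were 9, 15 and 13 microRNA windows lower, among 77 (0.305%), 96 (0.378%) and 131 (0.508%) of all windows. Of these microRNA windows 7, 11 and 10 were at least 2 times as high in both replicate 1 libraries.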

How the data were processed

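For each gene the authors deposited whole-number counts in a window of 1000 bp (hg38, per the submitters' processing notes). A deposited signal for the ChIP libraries, which is those counts times 1 constant per library, served as an alternative scaling. How reads were aligned, filtered and counted, and the strand, is not given in the sources used here. No sample column was left unused. The microRNA windows, their classes and the gene lists were chosen with earlier results of these data known.

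Counts were tested with edgeR 4.0.16 (quasi-likelihood test, TMM scaling, filterByExpr with a minimum count of 10) in R 4.3.3, with Benjamini-Hochberg adjustment over all windows tested and a threshold of 0.05. The 6 ChIP libraries were fitted with 4 group means (25901 windows, 2 residual degrees of freedom, biological coefficient of variation 26.0%). ChIP against input was fitted on 14 libraries with 8 group means (21504 windows, 6 residual degrees of freedom, 31.2%). The filter passed 1581 microRNA windows in the ChIP fit and 1086 in the fit with inputs, and counts of calls speak only of those that passed. It asks for a minimum level in at least 1 library, which a few counts reach in a shallow input, so passing does not simply follow level. In the fit with inputs MIR451A, with 33 input counts, was not tested, while MIR34C, with 18, was. Errors are standard errors from the fit, or SDs over libraries where stated, and cover counting error and the spread between libraries. CPM in the comparison with input used TMM factors over the 14 libraries. Replicate ratios used TMM-scaled CPM with a prior count of 2. DESeq2 1.42.0 and limma 3.58.1 (voom) were alternatives. The fitting code was tested on simulated data. Windows are 1-based. RefSeq (GRCh38.p14) gave hairpins, hosts and mature sequences, and 1908 of 1910 symbols matched.

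Named windows were, over input, the 10 higher without overlap, the 10 higher with overlap and the 5 lower with the smallest p. In the other comparisons they were those called, or, as there were none, 5 each way by smallest p. Members of the p53-linked, miR-17-92, let-7, epithelial and tissue lists were added. For 1 window named by this rule the overlapped gene and its values are not reported here.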

Additional observations from a re-analysis of the deposited data

How the results depend on the processing

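Of 153 recalculated comparison results, 129 stayed close to the value in the report. Over input, the counts of 151 microRNA windows higher and 223 lower became 34 and 31 when a mean of 50 counts was required, where 6453 windows were tested. They became 48 and 51 with only the DMSO libraries without peptide. Of all windows tested, 14% were higher and 10.2% lower in the first setting, and 8.55% and 2.62% in the second. The lower ones were 350 with total counts, 351 with DESeq2, 342 with limma-voom and 343 with only the replicate 2 libraries. Lower calls rose over all windows too, from 15.5% to 25.3%, 23.2%, 22.2% and 28.1% in the same order. The difference in median log2 ratio between overlapping windows and those with no overlap, 1.16, was 0.57 with any other window counted as a partner and 0.78 with no filter, and it was 1.11 to 1.23 with 1 ChIP library left out. Leaving out 1 library gave 0 to 9 windows higher and 0 to 1 lower for Nutlin3a against DMSO. The same gave 0 to 9 lower for peptide against none with DMSO, 0 to 15 lower with Nutlin3a, and 0 to 6 lower for the difference in response. The authors' constants, added after seeing the data, gave 10 lower for peptide against none with Nutlin3a, among 55 of all windows (0.212%). Of these 10, 8 were at least 2 times as high in both replicate 1 libraries. The causes of these shifts were not tested, except that fewer windows or libraries entered. With the replicate number as a block, 3 microRNA windows were higher for Nutlin3a against DMSO (MIR12136, MIR21 and MIR4477A), among 39 of all windows (0.151%). With the same block 1 was higher for peptide against none with DMSO, among 4 (0.0154%), and 1 was lower for the difference in response, among 5 (0.0193%). Deviations of same-numbered libraries correlated (r = 0.528 across microRNA windows, which are not independent), but 2 pairs do not settle whether the numbers pair the libraries. Of 829 recalculated values of named windows over input, 803 kept their direction and side of the threshold and 26 lost the call. Counts of 9 to 13 in the median microRNA window limit what can be seen there.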
